A study of Homo sapiens with 24 samples.

Results

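The effect of neuregulin 1 (NRG1) was taken over both MCF10A lines that carry an introduced ERBB4 receptor, CYT1 cells and CYT2 cells, to describe the rises and falls that the isoforms shared. MCF10A is an established, non-tumorigenic human mammary epithelial line. Samples were chosen by their labels, as every CYT1 or CYT2 sample with or without ligand, which gave 16 of the 24 arrays and 8 of the 12 biological samples. The groups compared, 4 in all, were CYT1 cells without NRG1, CYT1 cells with NRG1, CYT2 cells without NRG1 and CYT2 cells with NRG1, with n = 2 biological samples in each and 2 technical arrays per sample. Pooled over lines this sets 4 samples with NRG1 against 4 without. All groups, including the vector cells used for comparison, had been deprived of serum for 48 h and were then kept for 2 h with or without the ligand, whose dose the labels do not give. The series title speaks of full-length JM-a ERBB4, whereas the characteristics attach ICD to each isoform name. Each construct is represented by a line of its own, and whether a line is a clone or a pool is not given. The labels do not say that biological samples were separate cultures, so each p-value reflects only the variation among the samples at hand.

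NRG1 is a secreted growth factor that binds ERBB3 and ERBB4, and the bound receptor pairs with another member of the ERBB family and phosphorylates its own tail. Docking proteins on that tail start the RAS to ERK cascade, which switches on immediate-early genes and then its own inhibitors, and the PI3-kinase to AKT cascade, which keeps FOXO transcription factors out of the nucleus. The CYT1 tail holds a PI3-kinase docking site that the CYT2 tail lacks. MCF10A cells grow in response to ligands of the related EGF receptor, so several of these outputs are familiar in this cell type.

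No array showed the ERBB4 probe above background, 0 of 16 in both ERBB4 lines and 0 of 8 in vector cells, so the constructs could not be checked with it. All 8 epithelial markers that had a named probe, among them KRT5, KRT14, CDH1 and EPCAM, were detected on 24 of 24 arrays. Of the immune markers, PTPRC, CD3E and CD3D were detected on 0 of 24 arrays, MS4A1 on 9 and CD68 and CD14 on 24. Of the endothelial markers, CDH5, VWF and KDR were detected on 0, PECAM1 on 1 and TEK on 4. Of the fibroblast markers, LUM and PDGFRB were detected on 0, PDGFRA on 1, COL3A1 on 2, COL1A2 on 14, COL1A1 on 18 and DCN on 24. The summed level of the 8 epithelial markers (log2) ran from 14.88 to 15.02 without NRG1 and from 15.02 to 15.23 with it. For the 3 fibroblast markers measured it ran from 7.99 to 8.25 and from 8.04 to 8.26, and for the 3 immune markers from 9.05 to 9.21 and from 8.91 to 9.08. In such bulk RNA, fewer cells of a type and less RNA per cell cannot be told apart. Between 18745 and 20370 probes per array were detected. On the first principal component of the 8 samples (39.8% of the variance), 1 sample stood apart, CYT1 with NRG1 sample 1, at -21.14, against -5.64 to 16.67 for the other 7 samples.

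The rises with NRG1 included the ERK feedback inhibitors SPRY4 and DUSP6, the ERBB ligands HBEGF and TGFA, the chemokine gene CXCL8 and the protease gene MMP3, and the falls were led by the ubiquitin ligase gene FBXO32. Of 12357 genes, 320 (2.59%) passed the threshold of an adjusted p under 0.05 in limma, 246 of them higher (1.99%) and 74 lower (0.599%). On the authors' log2 values, which were not normalized, 335 genes were higher and 16 lower, so the share of calls that were higher moved from 76.9% to 95.4%. A gene was called common where, in CYT1 and in CYT2 cells alike, both samples with NRG1 lay on the same side of both samples without it. This held for 319 of the 320 genes (2.58% of all genes tested), 245 common rises (1.98%) and 74 common falls (0.599%). The pooled call was made on the same samples, so separation of most called genes largely follows from it and is a description. Over all genes, 904 (7.32%) were separated upwards in both lines and 882 (7.14%) downwards. The exception was PHLDA2, an imprinted PH-domain protein, whose pooled log2 change was 0.58 ± 0.13 (SE, n = 4 against 4) while the CYT1 groups overlapped, at 8.31 and 8.07 without NRG1 against 8.3 and 8.78 with it. The common rises had a median pooled log2 change of 0.49, the common falls of -0.41 and all genes of -0.01, and 24 rises and 2 falls exceeded 2-fold. Sizes depended on background correction. On quantile-normalized values without it, S1PR3 went from 1.05 to 0.57 and VAV3 from -1.03 to -0.67, whereas PHLDA1 went from 1.04 to 1.01. Of 86 genes named in this text that passed, 35 had changes over 1.5 times larger with the correction.

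Most common genes had the larger value in CYT2 cells, although the difference between lines was tested gene by gene and passed only for MMP3. The median log2 change of the 245 rises was 0.40 in CYT1 and 0.60 in CYT2 cells, and 217 of them had the larger value in CYT2 cells, 28 in CYT1 cells. For the 74 falls the medians were -0.36 and -0.47, and 58 fell further in CYT2 cells. Over all 12357 genes, the change was larger in size in CYT2 cells for 6750 and in CYT1 cells for 5607. When the lines were tested apart in limma, 127 genes rose (1.03%) and 23 fell (0.186%) in CYT2 cells, whereas 0 passed in CYT1 cells, where 949 had an unadjusted p under 0.05. Of the 127 rises in CYT2 cells, 124 (97.6%) were also separated upwards in CYT1 cells, against 16.8% of all genes. Of the 23 falls, 20 (87%) were separated downwards there, against 17.4% of all genes. CYT1 samples entered the spread behind those CYT2 calls, so these shares are not an independent check. The test that both lines changed, which takes the larger p of the pair, passed 0 genes in limma with a smallest adjusted p of 0.157, and 391 genes (3.16%) had an unadjusted p under 0.05. At that unadjusted level stood 235 of the 245 common rises and 73 of the 74 common falls. Common genes had been picked from the same samples, so this share was largely set by the choice and is no further test. Across all 12357 genes, which are not independent replicates and whose values share the normalization, the effects in the lines had a Pearson r of 0.52 and a Spearman coefficient of 0.38.

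**Figure D1:**
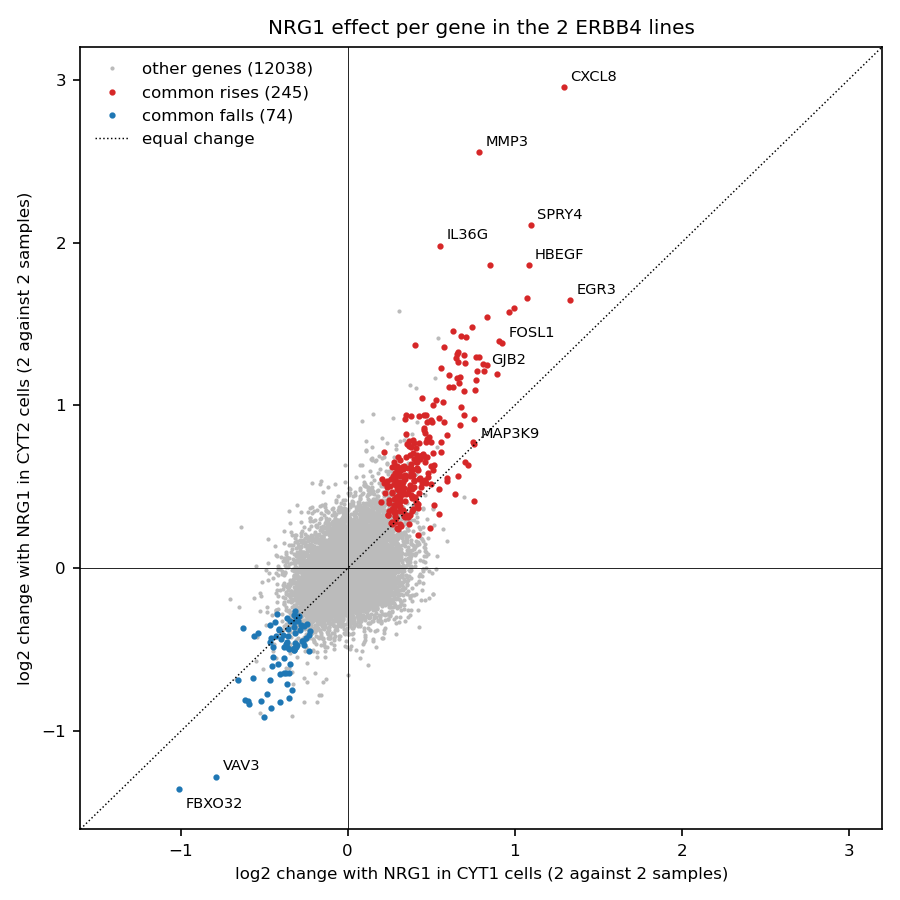
Log2 change with NRG1 in CYT1 cells (horizontal axis) against CYT2 cells (vertical axis), 1 point per gene, each from 2 against 2 biological samples. The 245 common rises (red) and 74 common falls (blue) lie in the corners where both changes share a sign, and 217 of the rises have the larger value in CYT2 cells, while MAP3K9 lies on the line of equal change.

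Beside each gene list stand the shares over all genes tested, of which 1.99% rose and 0.599% fell. The lists were chosen with earlier results of these data known, so their counts are descriptions. Among 6 ERBB ligand genes measured, 4 rose and 0 fell, with a median log2 change of 0.57, and 0 of 3 receptor genes passed in limma. With 1 sample left out, 1 to 4 ligands rose. The ligands that did not pass were NRG4 at 0.01 and NRG3 at -0.20. HBEGF, a membrane-anchored ligand of EGFR and ERBB4, lay at log2 intensities of 9.77 and 9.54 in CYT1 and 9.09 and 8.16 in CYT2 cells without NRG1, and at 11.03, 10.44, 11.13 and 9.84 with it. Every sample with NRG1 was above every sample without, and sample 2 of CYT2 cells was the lowest of its arm on both sides. The change was 1.47 ± 0.29 (2.78-fold, adjusted p = 0.0281 in limma, n = 4 against 4). TGFA, an EGFR ligand, lay at 9.07 and 9.16 in CYT1 and 8.68 and 8.46 in CYT2 cells without NRG1, against 9.96, 9.81, 9.93 and 9.81 with it. The arms did not overlap, and the 4 samples with NRG1 lay close together whereas CYT2 cells without it lay below CYT1 cells. TGFA rose by 1.03 ± 0.11 (adjusted p = 0.00442). EREG, epiregulin, which binds the same receptors as HBEGF, had a rise of 0.71 ± 0.13. The cells' own NRG1 transcript rose by 0.44 ± 0.10, and its other probes gave 0.36 and 0.11. Among the receptors, the pooled change was 0.03 ± 0.07 for EGFR, -0.04 ± 0.08 for ERBB2 and -0.28 ± 0.11 for ERBB3, with adjusted p-values of 0.89, 0.841 and 0.246.

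Some feedback inhibitors of the receptor and of the RAS to ERK cascade rose in the pooled test. Of 15 receptor-proximal inhibitors 3 rose and 0 fell (median 0.27). SPRY4, a Sprouty protein that blunts RAS activation, lay at 6.96 and 6.74 in CYT1 and 6.46 and 5.38 in CYT2 cells without NRG1, and at 8.01, 7.88, 8.29 and 7.77 with it. All samples with NRG1 lay above all samples without, and the widest gap among samples of a group was in CYT2 cells without ligand. SPRY4 rose by 1.60 ± 0.25 (3.04-fold, adjusted p = 0.0128), and its dimmer second probe gave 0.73. ERRFI1, which binds and inhibits the EGFR kinase, rose by 1.11 ± 0.18, and the related Sprouty SPRY1 by 0.53 ± 0.10. Of 9 dual-specificity MAP kinase phosphatases, 3 rose and 0 fell, and all 9 had a change above 0 (median 0.34). With 1 sample left out, 1 to 3 phosphatases rose. DUSP6, which dephosphorylates ERK in the cytoplasm, lay at 9.99 and 9.86 in CYT1 and 9.58 and 8.64 in CYT2 cells without NRG1, against 11.38, 10.62, 11.13 and 10.41 with it. The lowest sample with NRG1 was above the highest without. DUSP6 rose by 1.37 ± 0.24 (2.58-fold), and its second probe gave 1.59. The nuclear phosphatases DUSP5 and DUSP4 rose by 1.0 ± 0.14 and 0.99 ± 0.22, the latter with a dim second probe at 0.28. TRIB1, a pseudokinase scaffold that directs substrates to a ubiquitin ligase, rose by 1.36 ± 0.25.

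Transcription regulators of the immediate-early class held more rises than any other list. Of 21 measured EGR, KLF, MAF and related genes, 9 rose and 0 fell (median 0.45), against 1.99% of all genes that rose. With 1 sample left out, 4 to 10 of them rose. EGR3, a zinc-finger factor induced by ERK, lay at 5.02 and 5.06 in CYT1 and 4.67 and 4.41 in CYT2 cells without NRG1, and at 6.59, 6.15, 6.78 and 5.59 with it. The arms did not overlap, although the probe was detected on only 2 of the 8 arrays without NRG1. The pooled change was 1.49 ± 0.21 (adjusted p = 0.00953), and in CYT2 cells, where 0 of 4 arrays without ligand detected it, EGR3 was at least 2.32-fold higher. Without background correction the pooled change was 0.55. MAFF, a small MAF factor, rose by 1.04 ± 0.17, KLF6 by 0.98 ± 0.16 and ZFP36L2, an RNA-binding protein that promotes decay of AU-rich mRNAs, by 0.87 ± 0.16. EGR1, named for its place at the bottom of the list, had a change of -0.71 and did not pass (adjusted p = 0.111). Among 8 AP-1 subunits only FOSL1 passed (median 0.37). FOSL1 lay at 7.61 and 7.38 in CYT1 and 7.15 and 6.86 in CYT2 cells without NRG1, against 8.62, 8.21, 8.6 and 8.19 with it. The arms did not overlap, the changes in CYT1 and CYT2 cells were 0.92 and 1.38, and the pooled change was 1.15 ± 0.14 (2.23-fold). Of 13 ETS factors and PHLDA genes known as ERK outputs, 5 rose (median 0.14), among them PHLDA1 by 1.04 ± 0.14, the receptor tyrosine kinase EPHA2 by 0.77 ± 0.12 and PLAU, the urokinase protease, by 0.65 ± 0.14. CITED4, a CBP/p300-binding coregulator, rose by 1.04 ± 0.12.

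**Figure D2:**
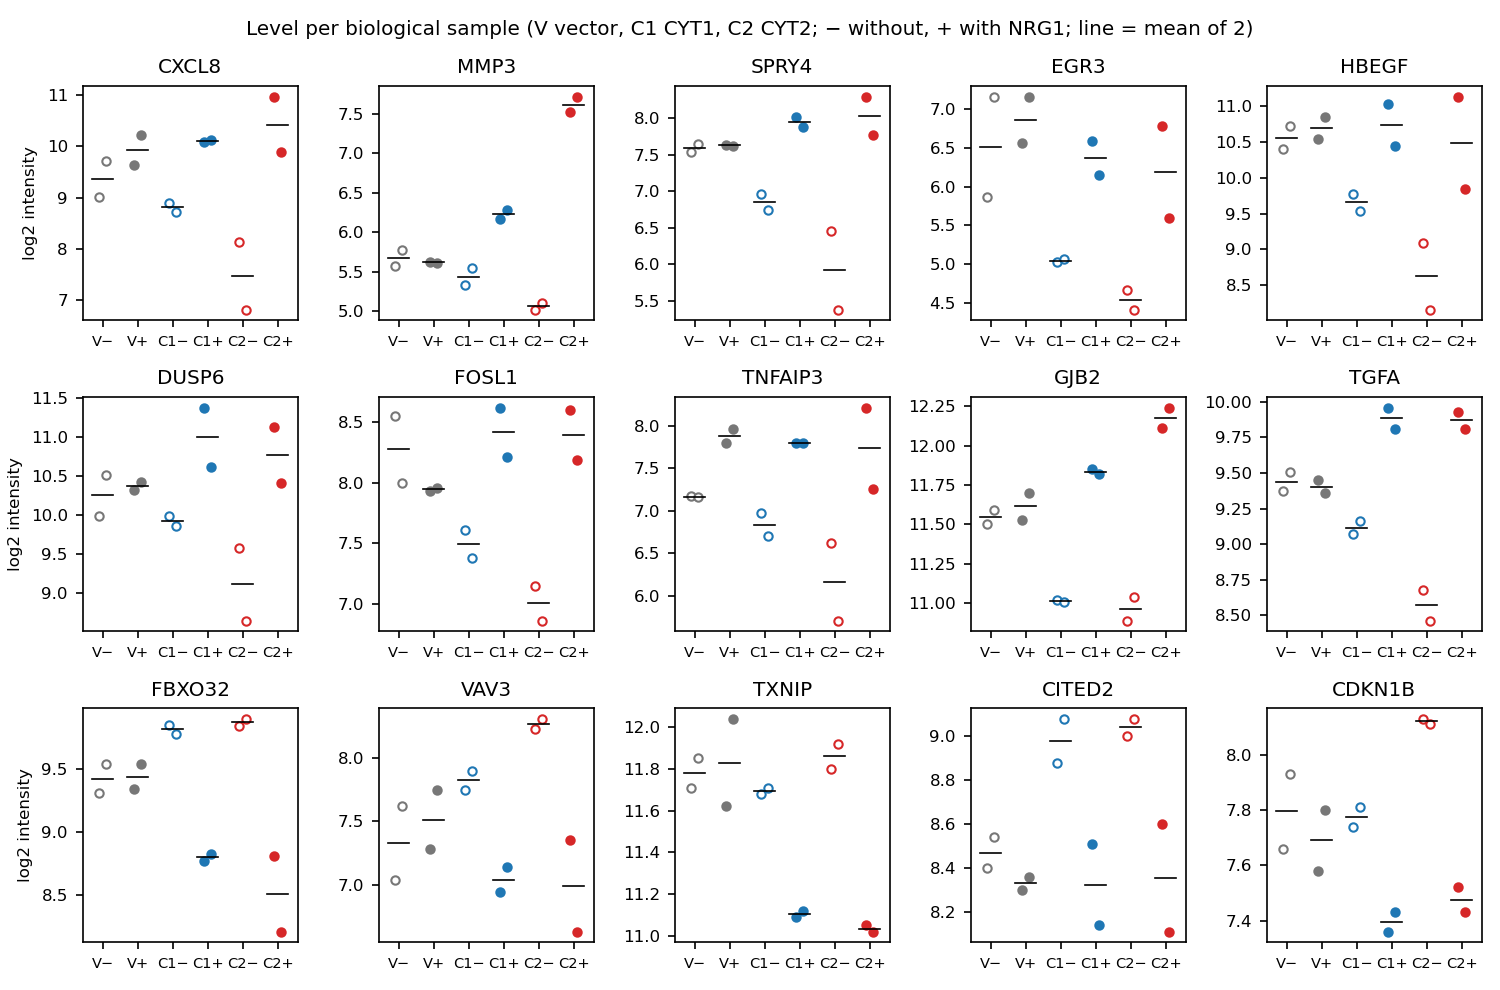
Normalized log2 intensity of 15 genes in each biological sample (points) of vector (V, grey), CYT1 (C1, blue) and CYT2 (C2, red) cells without (open) and with (filled) NRG1, with bars at the mean of 2; vertical axes are cut to each gene's range. In both ERBB4 lines filled points lie above open points for the first 10 genes and below them for the last 5, and SPRY4 in vector cells stays between 7.53 and 7.65.

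Chemokine and cytokine genes included the gene with the largest pooled rise. Of 13 measured, 5 rose and 0 fell (median 0.75), and 2 to 5 rose with 1 sample left out. CXCL8, the neutrophil chemoattractant interleukin 8, lay at 8.9 and 8.72 in CYT1 and 8.13 and 6.81 in CYT2 cells without NRG1, and at 10.08, 10.13, 10.97 and 9.88 with it. The lowest sample with NRG1 was above the highest without, and the CYT2 groups were the more spread. CXCL8 rose by 2.13 ± 0.37 (4.36-fold, adjusted p = 0.0162), by 1.30 ± 0.40 in CYT1 and 2.95 ± 0.40 in CYT2 cells, and its second probe gave a pooled 1.89. The chemokine CXCL2 rose by 0.96 ± 0.14 and the cytokines CSF3, LIF and IL6 by 0.84 ± 0.16, 0.82 ± 0.15 and 0.70 ± 0.12. CSF3, LIF and IL6 were dim, detected on 3, 4 and 6 of the 8 arrays without NRG1. Of 9 interleukin 1 family genes, 4 rose (median 0.31). They were IL36G, an epithelial member detected on 6 of 8 arrays without NRG1, by 1.27 ± 0.27, the alarmins IL33 and IL1A by 0.97 ± 0.15 and 0.83 ± 0.15, and IL1B by 0.75 ± 0.12. IL24, an IL-10 family cytokine detected on 4 of 8 arrays without NRG1, rose by 1.19 ± 0.17, or by 0.41 without background correction. Of 12 NF-kB subunits, inhibitors and attenuators, 2 rose (median 0.29). TNFAIP3, a ubiquitin-editing enzyme, lay at 6.97 and 6.7 in CYT1 and 6.62 and 5.71 in CYT2 cells without NRG1, and at 7.8, 7.8, 8.21 and 7.26 with it. The arms did not overlap, and the change was 1.27 ± 0.23 (2.41-fold). NFKBIA, the inhibitor that holds NF-kB in the cytoplasm, rose by 0.34 ± 0.08.

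A few genes of matrix turnover, coagulation and adhesion rose. MMP3, stromelysin 1, which degrades matrix proteins, was the gene that passed among 9 matrix metalloproteinases and inhibitors (median 0.19). It lay at 5.33 and 5.55 in CYT1 and 5.02 and 5.11 in CYT2 cells without NRG1, and at 6.17, 6.29, 7.52 and 7.72 with it. The arms did not overlap, and CYT2 cells with NRG1 stood above all other samples. MMP3 rose by 1.67 ± 0.28 (3.19-fold, adjusted p = 0.0156). Its probe was detected on 6 of 8 arrays without NRG1, and the change was 0.73 on quantile-normalized values without background correction. Of 8 plasminogen and coagulation genes, 3 rose (median 0.40). They were F3, tissue factor, by 1.06 ± 0.16, THBD, thrombomodulin, by 0.68 ± 0.09, and PLAU. Of 15 genes known as YAP and TEAD targets, 4 rose (median 0.17). CCN2, a matricellular growth factor, rose by 1.30 ± 0.21 and FJX1 by 0.34 ± 0.07, next to F3. DLC1, a tumour suppressor, was detected on 0 of 8 arrays without NRG1 and was at least 1.1-fold higher with it (adjusted p = 0.0162). GJB2, which encodes a gap junction connexin, lay at 11.02 and 11.01 in CYT1 and 10.89 and 11.04 in CYT2 cells without NRG1, and at 11.85, 11.82, 12.11 and 12.24 with it. Samples of a group lay close together for this gene and the arms were far apart. GJB2 rose by 1.02 ± 0.09 and, with MAP3K9, a kinase upstream of JNK (0.76 ± 0.07), shared the smallest adjusted p of the pooled test, 0.00302. GJB2 was the member that passed among 5 connexins (median 0.10). Of 10 integrin and laminin genes, ITGA2 and LAMB3 rose, by 0.46 ± 0.10 and 0.55 ± 0.10 (median 0.20), and the dim second probe of LAMB3 gave 0.15. HAS3, a hyaluronan synthase, rose by 1.15 ± 0.16 and S1PR3, a receptor for sphingosine 1-phosphate, by 1.05 ± 0.16.

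Some further rises touched glucose use, survival and lineage. Of 14 glucose uptake and glycolysis genes, 3 rose (median 0.04): the transporter SLC2A3 by 1.04 ± 0.21, the regulator PFKFB3 by 0.56 ± 0.08 and the hexokinase HK2 by 0.43 ± 0.08. Of 14 BCL2 family and death control genes, the anti-apoptotic MCL1 rose by 0.56 ± 0.10 and the pro-apoptotic BAK1 by 0.47 ± 0.10 (median -0.05). FOXA1, a luminal pioneer factor, rose by 0.78 ± 0.13, while GATA3, a luminal zinc-finger factor on the same list of 12 genes, fell by 0.66 on the log2 scale (SE 0.11). SNAI2, a repressor of epithelial genes, rose by 0.63 ± 0.12 and was the member that passed among 8 mesenchymal transition genes (median 0.11). SPRR2A, a cornified envelope protein, rose by 0.92 ± 0.16 and was the member that passed among 15 keratinocyte genes (median 0.13). The pair of CEBPB, a transcription factor, and TRIB1 rose and NUPR1, a stress-induced chromatin protein, fell among 14 ATF4 and Tribbles genes (median -0.08). SMAD7, an inhibitor of TGF-beta receptors, rose by 0.61 ± 0.11. PTPRE, a receptor-type tyrosine phosphatase, and SH3TC1, whose role is less well known, rose by 0.99 ± 0.11 and 1.03 ± 0.12.

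Genes known as FOXO targets or as repressed by growth factors held more falls than any other list. Of 29 measured, 11 fell and 0 rose, with a median log2 change of -0.19, against 0.599% of all genes that fell. Without normalization 7 of the 29 fell and 1 rose, and 7 to 10 fell with 1 sample left out. FBXO32, atrogin 1, a muscle-atrophy ubiquitin ligase and FOXO target, lay at 9.85 and 9.78 in CYT1 and 9.84 and 9.9 in CYT2 cells without NRG1, and at 8.77, 8.83, 8.81 and 8.21 with it. Samples without ligand lay close together, and every sample with NRG1 was lower. The change was -1.18 ± 0.12 (adjusted p = 0.00423), -1.01 ± 0.16 in CYT1 and -1.36 ± 0.16 in CYT2 cells, and the second probe gave -0.47. TXNIP, which restrains glucose uptake and thioredoxin, lay at 11.68 and 11.71 in CYT1 and 11.8 and 11.92 in CYT2 cells without NRG1, against 11.09, 11.12, 11.05 and 11.02 with it. The arms were tight and apart, and TXNIP changed by -0.71 ± 0.07 (adjusted p = 0.00423). PDK4, which inhibits pyruvate dehydrogenase, changed by -0.71 ± 0.09 and was detected on 7 of 8 arrays with NRG1. CITED2, a CBP/p300-binding regulator, lay at 8.88 and 9.08 in CYT1 and 9 and 9.08 in CYT2 cells without NRG1, and at 8.51, 8.14, 8.6 and 8.11 with it. The lines fell by nearly equal amounts, with changes of -0.66 in CYT1 and -0.69 in CYT2 cells. Others of the list with a place in growth control were PIK3IP1, an inhibitor of PI3-kinase (-0.63 ± 0.10), ID3, an inhibitor of bHLH factors (-0.57 ± 0.09), SESN1, a sestrin that restrains mTORC1 (-0.53 ± 0.08), and CDKN1B, the p27 inhibitor of cyclin-dependent kinases (-0.51 ± 0.07). BCL6, TOB1 and KLHL24 also fell, with changes of -0.50, -0.40 and -0.32. The highest member was IRS2, a docking protein for insulin signalling, at 0.43, which did not pass.

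Outside that list the falls were led by VAV3, a guanine nucleotide exchange factor. It lay at 7.75 and 7.9 in CYT1 and 8.23 and 8.31 in CYT2 cells without NRG1, and at 6.94, 7.14, 7.35 and 6.63 with it. The arms did not overlap, and VAV3 changed by -1.03 ± 0.15 (adjusted p = 0.00953). GAS1, a growth-arrest membrane protein, changed by -0.71 ± 0.09, CHN1, a RAC GTPase activator, by -0.71 ± 0.11, and PANK1, an enzyme of coenzyme A synthesis, by -0.67 ± 0.12. The zinc-finger repressor BCL11A changed by -0.62 ± 0.09, with other probes at -0.64 and -0.04. TENT5B, a nucleotidyltransferase family member, changed by -0.61 ± 0.13, RHOU by -0.54 ± 0.12, and the Wnt receptor FZD2 by -0.54 ± 0.10, while another Wnt receptor, FZD8, rose by 0.47 ± 0.09. For HOXC6, a homeobox factor (-0.53 ± 0.08), and LFNG, a Notch-modifying glycosyltransferase (-0.51 ± 0.09), dim other probes gave 0.03 and, for LFNG, -0.03 and 0.04. SMAD9, a BMP signal transducer detected on 4 of 8 arrays with NRG1, changed by -0.38 ± 0.09. Cell cycle genes moved little. Of 25 mitosis genes, AURKA and CENPA fell, with changes of -0.31 ± 0.06 and -0.39 ± 0.08, and the median was -0.15. A change above 0 was seen for 2 of the 25, against 5756 of all 12357 genes. With 1 sample left out, 0 to 6 mitosis genes fell. E2F2, an S-phase transcription factor, fell, with a change of -0.57 ± 0.12, and was the member that passed among 22 DNA replication and E2F genes (median -0.08).

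Several lists held few calls or none. In limma 0 of 18 interferon-stimulated genes passed (median -0.02) and 0 of 16 sterol and fatty acid synthesis genes (median -0.04). RRS1 was the member that passed among 18 ribosome biogenesis genes, with a rise of 0.30 ± 0.07 (median 0.09). Among 14 p53 targets SESN1 fell and 0 rose (median 0.01), and among 14 genes of gp130 cytokine feedback IL6 and LIF rose (median 0.07). EPHA2 was the member that passed among 11 Eph receptors and ephrins (median 0.10). LAMB3 passed among the 8 epithelial markers, whose median was 0.09. Among 18 Wnt receptor and feedback genes FZD8 rose and FZD2 fell (median 0.05), and among 12 genes of BMP and TGF-beta feedback SMAD7 rose and SMAD9 and ID3 fell (median 0.04).

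**Figure D3:**
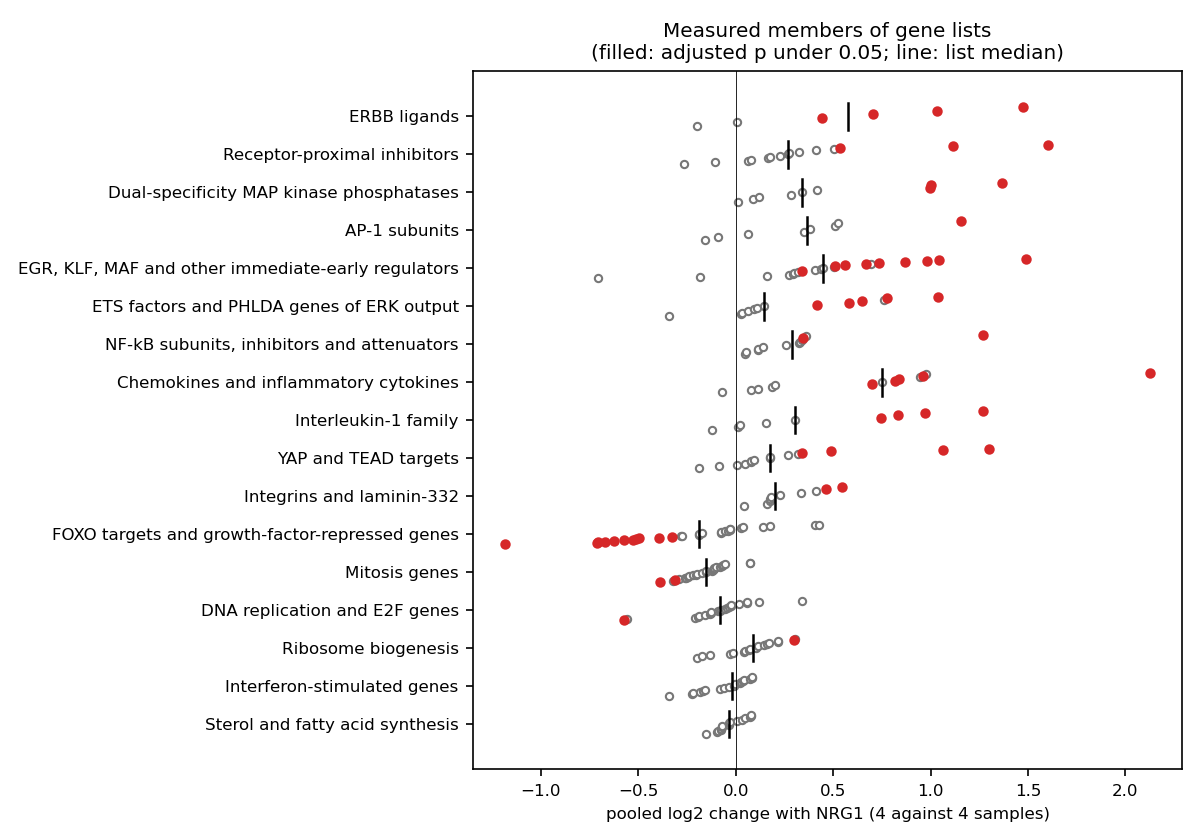
Pooled log2 change with NRG1 (horizontal axis, 4 against 4 samples) of each measured member of 17 gene lists, with genes past the threshold filled in red and the list median as a vertical bar. ERBB ligands, immediate-early regulators and cytokines hold the filled points on the right, and the FOXO list holds 11 on the left.

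Vector cells show what the ligand did without an introduced receptor. In them 0 genes passed in limma, and 500 had an unadjusted p under 0.05. The 245 common rises had a median log2 change of 0.03 in vector cells, with 47 (19.2%) separated upwards and 33 (13.5%) downwards, against 17.9% and 13.9% of all genes. The 74 common falls had a median of 0.01, with 13 (17.6%) separated downwards and 11 (14.9%) upwards, against 13.9% and 17.9% of all genes. The test that the mean effect of both ERBB4 lines differs from that in vector cells passed 18 genes (0.146%), 17 higher (0.138%) and FBXO32 lower. Of these 18, 17 were common genes, which make up 2.58% of all genes. The test contains the pooled effect that picked the common genes, so this overlap is partly built in. The differences were 1.73 ± 0.14 for MMP3 (adjusted p = 0.000371), 1.48 ± 0.24 for FOSL1, 1.36 ± 0.19 for F3, 1.32 ± 0.20 for S1PR3, 1.25 ± 0.20 for CITED4, 1.07 ± 0.13 for TGFA and -1.20 ± 0.20 for FBXO32, with adjusted p-values of 0.0215 to 0.0372 apart from MMP3. IFFO1, an intermediate-filament family member, and ANGPTL4, a secreted inhibitor of lipoprotein lipase, differed by 1.04 ± 0.15 and 1.02 ± 0.16. Part of some differences lay in vector cells, where FOSL1, F3, S1PR3 and CITED4 changed by -0.33, -0.29, -0.27 and -0.21. The vector changes of MMP3, TGFA and FBXO32 were -0.06, -0.04 and 0.02, and those of IFFO1 and ANGPTL4 -0.14 and -0.10. MMP3 alone passed with each of the 12 samples left out in turn, and 1 gene was left without any 1 vector sample, without CYT1 with NRG1 sample 1 or without CYT1 lacking NRG1 sample 2.

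Among 12 NF-kB subunits, inhibitors and attenuators the median change in vector cells was 0.01, and among 13 cytokine genes 0.09, with 0 genes past the threshold. TNFAIP3 lay at 7.17 and 7.16 without and 7.79 and 7.96 with NRG1 in vector cells, a change of 0.71, and NFKBIA changed by 0.43 there against 0.34 in the pooled ERBB4 lines. NFKB2 and RELA had vector values of -0.20 and -0.15. Among the cytokines the vector values of CXCL8, CXCL2 and IL6 were 0.56, 0.47 and 0.44, and those of CCL20, CXCL1 and LIF -0.21, -0.10 and -0.09. For none of TNFAIP3, NFKBIA, CXCL8, CXCL2 and IL6 did the difference between ERBB4 lines and vector cells pass. Where vector levels lay relative to the ERBB4 lines differed by gene, shown here for genes chosen after their values were seen. SPRY4 stood at 7.53 and 7.65 without and 7.63 and 7.62 with NRG1 in vector cells. HBEGF stood at 10.4 and 10.72 without and 10.54 and 10.85 with it, also above all unstimulated ERBB4-line samples (highest 9.77). FBXO32 stood at 9.31 and 9.54 without and 9.34 and 9.54 with it, between the arms of the ERBB4 lines. TXNIP stood at 11.71 and 11.85 without and 11.62 and 12.04 with it, near the unstimulated ERBB4 lines. MMP3 stood at 5.57 and 5.78 without and 5.63 and 5.61 with it. These MMP3 levels lay below both stimulated lines and just above the unstimulated ERBB4-line samples (highest 5.55). F3 in vector cells without NRG1 (10.97 and 10.84) lay above CYT1 cells with NRG1 (10.68 and 10.71). TGFA in vector cells without NRG1 (9.37 and 9.51) lay below CYT1 (9.96 and 9.81) and CYT2 cells (9.93 and 9.81) with NRG1. A comparison of unstimulated lines would share the unstimulated ERBB4 samples with the NRG1 effect, so these values are given side by side only.

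**Figure D4:**
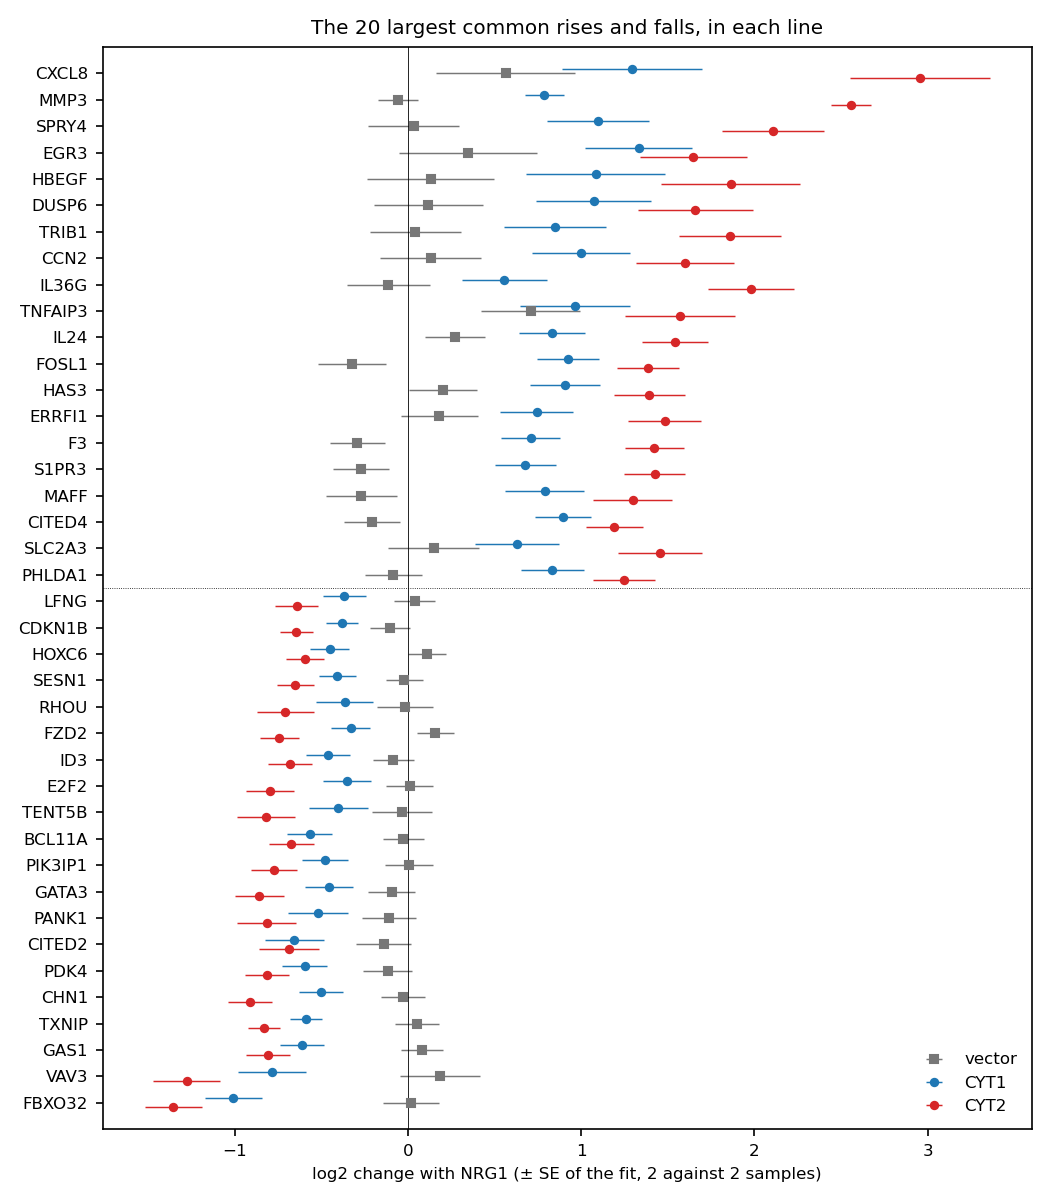
Log2 change with NRG1 (horizontal axis, bars ± SE of the fit, 2 against 2 samples) of the 20 largest common rises and 20 largest common falls in vector (grey), CYT1 (blue) and CYT2 (red) cells. Many vector values lie near 0. Others lie above it, such as TNFAIP3 at 0.71, CXCL8 at 0.56 and EGR3 at 0.35, or below it, such as FOSL1 at -0.33, F3 at -0.29 and S1PR3 at -0.27. CYT2 values lie further from 0 than CYT1 values for each of the 40 genes.

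The difference between isoforms that passed, in MMP3, made up 0.00809% of genes tested (1 gene), and 508 genes had an unadjusted p under 0.05 in limma. MMP3 rose by 0.79 ± 0.11 in CYT1 and 2.56 ± 0.11 in CYT2 cells, a difference of -1.77 ± 0.16 (adjusted p = 0.0135, n = 2 against 2 in each line). LRRC8C, a subunit of volume-regulated anion channels and a common rise, and H6PD, an enzyme of the endoplasmic reticulum pentose phosphate pathway, had the next smallest p and did not pass. The LRRC8C changes were 0.58 in CYT1 and 1.36 in CYT2 cells, and those of H6PD 0.36 and -0.30. At the other end MAP3K9 changed by 0.76 in each line.

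The promoters of 4 rising genes and 1 falling gene are shown, from the chemokine, YAP target, NF-kB feedback, coagulation and growth-factor-repressed groups. These promoters were picked among those of the largest common rises and falls because they held a match to a searched motif. The presence of a match in these promoters was therefore set by the choice. Each is the 250 bases before the gene's start in RefSeq's annotation of GRCh38.p14, written 5′ to 3′ on the gene's strand, with capitals for the named motif. CXCL8 (chr4:73740319-73740568, plus strand) shows an AP-1 match, CCN2 (chr6:131951373-131951622, minus strand) a kappa-B match, TNFAIP3 (chr6:137867009-137867258, plus strand) a pair of kappa-B matches, F3 (chr1:94541760-94542009, minus strand) a pair of AP-1 matches and TXNIP (chr1:145996580-145996829, minus strand) a forkhead match.
CXCL8: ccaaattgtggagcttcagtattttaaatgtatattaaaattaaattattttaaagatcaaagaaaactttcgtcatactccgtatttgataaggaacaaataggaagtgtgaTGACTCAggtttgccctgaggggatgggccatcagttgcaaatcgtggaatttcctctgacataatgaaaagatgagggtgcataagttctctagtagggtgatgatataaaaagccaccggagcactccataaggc
CCN2: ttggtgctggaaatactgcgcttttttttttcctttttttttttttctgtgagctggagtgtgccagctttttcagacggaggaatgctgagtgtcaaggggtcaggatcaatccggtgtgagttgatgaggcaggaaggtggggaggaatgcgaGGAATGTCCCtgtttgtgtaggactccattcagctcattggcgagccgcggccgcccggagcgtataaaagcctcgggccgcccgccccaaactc
TNFAIP3: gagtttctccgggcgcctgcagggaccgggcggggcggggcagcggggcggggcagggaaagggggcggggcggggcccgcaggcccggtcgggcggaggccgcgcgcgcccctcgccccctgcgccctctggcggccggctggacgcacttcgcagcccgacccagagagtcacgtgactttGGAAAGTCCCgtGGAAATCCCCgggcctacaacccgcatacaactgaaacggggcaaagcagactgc
F3: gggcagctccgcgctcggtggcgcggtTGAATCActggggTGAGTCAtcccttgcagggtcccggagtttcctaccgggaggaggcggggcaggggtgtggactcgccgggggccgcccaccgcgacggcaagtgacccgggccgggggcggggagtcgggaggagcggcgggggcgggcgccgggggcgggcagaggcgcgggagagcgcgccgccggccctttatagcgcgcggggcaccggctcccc
TXNIP: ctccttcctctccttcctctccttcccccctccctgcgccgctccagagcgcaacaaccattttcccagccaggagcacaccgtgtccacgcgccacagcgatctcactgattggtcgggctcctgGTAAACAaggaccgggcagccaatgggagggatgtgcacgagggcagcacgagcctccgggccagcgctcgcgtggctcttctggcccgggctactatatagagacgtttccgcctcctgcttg

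Both strands were searched. The AP-1 motif was TGANTCA and the TEAD motif GGAATG. The forkhead motif was GTAAACA, and the kappa-B site was searched by name. The CRE motif and the CArG box were searched as well. The AP-1 match of CXCL8 began 137 bases before the start, those of F3 at 223 and 210, those of TNFAIP3 for kappa-B at 67 and 55 and the forkhead match of TXNIP at 124. The kappa-B match of CCN2, at 95, overlapped a TEAD match, and further TEAD matches stood at 104 and 169 in lower case. RefSeq promoters were matched for 186 common rises, 58 common falls and 9887 tested genes. A kappa-B match stood in 12.4% of the rises and 8.6% of the falls, against 5.9% of tested genes and 5.1% of all 27305 promoters in the table. For AP-1 the shares were 5.4% of rises, 8.6% of falls, 4.2% of tested genes and 6.6% of all promoters. Forkhead matches stood in 1.1% of rises, 5.2% of falls, 1.9% of tested genes and 3.0% of all promoters, and TEAD matches in 10.8%, 6.9%, 9.3% and 11.9%. In the same order the shares were 3.8%, 5.2%, 2.9% and 1.8% for CRE and 2.2%, 0.0%, 1.0% and 1.1% for the CArG box. A match is a run of letters, and no binding was measured.

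Single samples moved the number of calls. With each of the 8 samples left out in turn, 70 of the 319 common genes, 57 rises and 13 falls, passed in every one of the 8 fits. Left out singly, sample 2 of CYT1 cells with NRG1 gave 566 genes (328 higher, 238 lower), and sample 2 of CYT2 cells without NRG1 gave 90 (72 higher, 18 lower). Without sample 2 of CYT1 cells lacking NRG1 the count was 105, without CYT1 sample 1 lacking NRG1 it was 214, and without CYT2 sample 1 lacking NRG1, or sample 1 or 2 with NRG1, it was 136, 115 and 101. Leaving out the sample that stood apart, CYT1 with NRG1 sample 1, gave 266 genes (214 higher, 52 lower), and 212 of the 319 common genes still passed. Without that sample the FOXO list had 9 falls of 29, the ERBB ligands 2 rises of 6, the immediate-early regulators 8 of 21 and the cytokines 4 of 13. The phosphatases then had 1 rise of 9, against 3 with all samples, and the mitosis genes 0 falls of 25, against 2 (limma). Of the 86 named genes past the threshold, 38 passed in all 8 fits and 48 did not. Genes that passed in all 8 fits included SPRY4, EGR3, FOSL1, TGFA, GJB2, F3, CCN2, IL24, PHLDA1, ERRFI1, FBXO32, VAV3, TXNIP, PDK4 and CDKN1B. CXCL8, MMP3, HBEGF, DUSP6, TRIB1 and TNFAIP3 did not pass in at least 1 of them, and AURKA, BAK1, FJX1, NFKBIA, NRG1, NUPR1, RHOU and SMAD9 did not pass in 7 of 8.

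**Figure D5:**
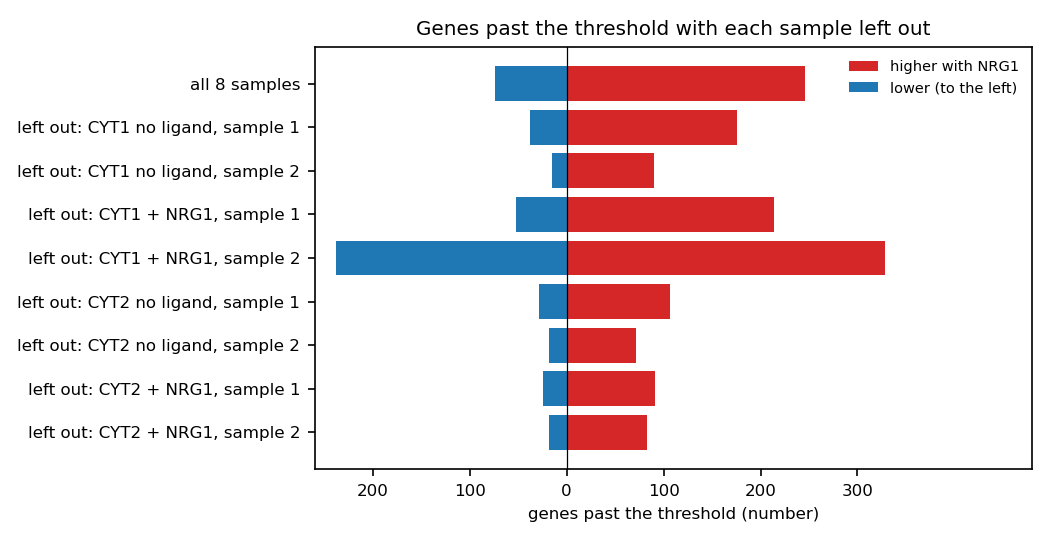
Number of genes past the threshold (horizontal axis; higher to the right, lower to the left) in the pooled test with all 8 samples and with each biological sample left out. Counts run from 90 without sample 2 of CYT2 cells lacking NRG1 to 566 without sample 2 of CYT1 cells with NRG1, against 320 with all samples.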

How the data were processed

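RNA of vector, CYT1 and CYT2 cells was measured on Illumina BeadChips. Per the file headers, the scanner table that was deposited lists a bead intensity with its detection p-value, for 47323 probes and 24 arrays. The authors' value table holds log2 values that equal the log2 of those intensities to within 5e-09, without normalization. Scanner software is not given in the sources used here. Columns were matched to samples by line, ligand and replicate. Background correction and quantile normalization of the intensities used neqc (limma 3.58.1, R 4.3.3, offset 16). Probes with a detection p under 0.05 on at least 4 arrays were kept, 23019 in all, 16620 of them named through the platform annotation (30113 probes with 1 symbol, 8 with several, 17202 not listed). Each gene was represented by its probe of highest mean, giving 12357 genes. Technical arrays were averaged.

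In limma, 4 samples with NRG1 were set against 4 without, with line as covariate (5 residual degrees of freedom). Effects per line came from 4 group means and those in vector cells from all 12 samples. Adjustment of p-values followed Benjamini-Hochberg, always over every gene tested, and a change is log2 with its standard error. The number of arrays limits the precision. Root mean square log2 differences over genes were 0.179 to 0.206 between technical arrays and 0.166 to 0.255 between biological samples of the ERBB4 groups. "At least" folds use the lowest detected signal of each array. Files named no chips or scan dates.

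Named genes were the 20 largest common rises and falls, up to 4 called members of each list, the ERBB receptors, and the genes with the largest or most certain differences between lines, against vector and in the test of both lines. EGR1, BCL6, TOB1, KLHL24, IRS2, NRG3, NRG4, NFKB2, RELA, CCL20 and CXCL1 were named after their values were seen. The members and lists were chosen with earlier results of these data known. Alternatives were other background and normalization settings, no probe filter, single technical arrays, a replicate block and left-out samples. The scripts were tested on simulated data.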

Additional observations from a re-analysis of the deposited data

Results flagged for a closer look

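The genes MMP3, FOSL1, F3, S1PR3, CITED4, TGFA, IFFO1, ANGPTL4 and FBXO32 had an NRG1 effect that differed between the ERBB4 lines and vector cells in a test of the difference itself (limma, n = 2 against 2 in each of the lines). On the log2 scale the differences, mean of CYT1 and CYT2 minus vector, were 1.73 for MMP3, 1.48 for FOSL1, 1.36 for F3, 1.32 for S1PR3, 1.25 for CITED4, 1.07 for TGFA, 1.04 for IFFO1, 1.02 for ANGPTL4 and -1.20 for FBXO32. MMP3 passed in 12 of 12 fits with a sample left out, F3 and S1PR3 in 5, TGFA in 6 and FBXO32 in 2. MMP3 was also flagged between the isoforms, with a CYT1 minus CYT2 difference of -1.77 (adjusted p = 0.0135 in limma). No group had the 4 samples that a check for outlying samples needs.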

How the results depend on the processing

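Against 320 pooled calls (319 common), 201 (201) were made without a probe filter, 195 (195) with technical array 1 alone, 78 (78) with array 2 alone and 653 with all arrays and a random block. On the authors' values without normalization the count was 351, 335 higher and 16 lower, so 95.4% of calls were higher against 76.9%, and the median change of all genes was 0.058 against -0.011. CYT1 alone gave 0 genes and CYT2 alone 9 in limma. Named genes past the threshold, 86, numbered 55 without the filter, 38 with array 2, 0 in CYT1 alone and 6 in CYT2 alone. The test of both lines, 0 genes, gave 2 with quantile normalization without background correction, 34 with the random block, 5 with a trended and robust prior, 1 with the replicate block and 4 in a fit of 12 samples. The 18 genes that differed from vector became 0 on the unnormalized values, 3 without the filter, 0 with either single array, 133 with the random block, 37 with the trended prior and 52 with the replicate block. The MMP3 difference between lines, 1 gene, became 0 on unnormalized values, without the filter, with either array and with the random block, and 2 with the replicate block. With a sample left out the counts ran from 90 to 566 for the pooled and the common genes, 0 to 0 for both lines, 1 to 31 against vector, 0 to 1 between lines and 43 to 81 for named genes. In the settings where 0 genes passed in limma, from 207 to 1418 had an unadjusted p under 0.05.

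Deviations of same-numbered samples correlated at -0.17 in CYT1, -0.18 in CYT2 and 0.23 in vector cells, not above 0.1 in every pair, so the numbers were not taken as pairs. The replicate block within lines gave 263 pooled and 259 common genes. With numbers crossed, an alternative chosen after seeing the data, these were 258 and 251. Among 2160 values of named genes under alternatives, 1629 kept their side of the threshold, 531 kept direction without passing, and 9, of EGFR, ERBB2 and H6PD, which did not pass, had the opposite sign. Without background correction, on quantile-normalized values, 35 of the 86 named changes were over 1.5 times smaller and 0 turned sign. Samples number 2 per group.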

Other observations

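Probes without a gene name also responded. Of 6399 unnamed probes tested in the pooled comparison, 44 passed (0.688%), 32 of them higher and 12 lower in both lines, against 278 of 16620 named probes (1.67%).

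Common genes were shorter at the median than the genes tested. The median gene length in RefSeq was 22454 bases for the common rises and 16232 for the common falls, against 27224 bases for all genes tested with a length. The values are a description.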
